A study of Homo sapiens with 8 samples.

Results

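The drug-resistant PC9-BR1 population was compared with its parent PC9-VU along the chromosomes, from 1 bulk RNA-seq library of each, which are 2 of the 8 libraries in the series. PC9 is a human non-small cell lung cancer cell line that depends on an EGFR carrying an exon 19 deletion, and every population described here carries that deletion. PC9-VU has no T790M mutation of EGFR, whereas PC9-BR1, which is T790M positive, came from PC9-VU after dose escalation in the EGFR inhibitor afatinib. The other 6 libraries are PC9-MGH, a version of the line obtained separately, and DS3, DS6, DS7, DS8 and DS9, each expanded from a single PC9-VU cell, and none of them has T790M. All 8 cultures were grown in RPMI with serum, carried a red fluorescent histone label, stood at passages 8 to 10 and were sequenced without drug.

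A cell line with an unstable genome can gain or lose whole chromosome arms or parts of them, and the transcripts of neighbouring genes then tend to rise or fall together with the number of copies of their DNA. Transcript levels of neighbours can also move together for other reasons, such as a shared chromatin domain, so a shift of neighbouring rows in RNA counts is not a measurement of copy number. T790M is the best known second mutation of EGFR under early EGFR inhibitors, and copy gains of MET or ERBB2 are among the other known routes to resistance.

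The deposited table holds 22664 rows with a gene symbol, of which 22134 match 1 gene of chromosomes 1 to 22 or X. Each row was placed at the position of the gene it is named for (GENCODE release 44, hg38), and 4559 placed rows averaged 50 counts or more over PC9-VU and PC9-BR1. These rows hold 97.1% of the named counts of PC9-VU and 97.0% of those of PC9-BR1. The names do not identify the transcripts that were counted. Of 87 rows named for ribosomal proteins, which are abundant in every growing cell, 59 had a mean under 10 counts, while 21 of 354 rows named for olfactory receptors, which are silent in most tissues, had a mean of at least 10. For this reason no row is read as a gene, the lung origin of the cells could not be checked by marker genes, and the positions below are approximate. The named rows summed to 3497722 counts for PC9-VU and 2717355 for PC9-BR1. The measure used throughout is the difference in log2 CPM (counts scaled to the same library total), PC9-BR1 minus PC9-VU, for which a 1.5-fold change is 0.58. There is no replicate, so none of the differences has a test, and a difference between the populations cannot be told apart from one between these 2 cultures or libraries. Nor can a shift in some of the cells be told apart from a smaller one in all of them.

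Over all 4559 rows, the 2 libraries were close to each other. The median log2 CPM difference was -0.02, with quartiles of -0.24 and 0.21, and 2162 rows were higher and 2397 lower in PC9-BR1. For comparison, the median counting error of a row was 0.13 on the same scale and reached 0.29 for a row with 50 counts in each library. Only 40 rows were at least 2-fold higher in PC9-BR1, which is 0.877% of the rows, and 89 were at least 2-fold lower, which is 1.95%. Neighbouring rows differed alike. Across rows, the correlation between the difference of a row and that of another on its arm was 0.37 for adjacent rows, 0.24 at 5 rows apart, 0.19 at 10, 0.15 at 25 and 0.05 at 50. Rows of an arm share both libraries and are not independent, and adjacent rows may count reads of 1 transcript, so these values only describe how far along an arm the difference carried.

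**Figure D1:**
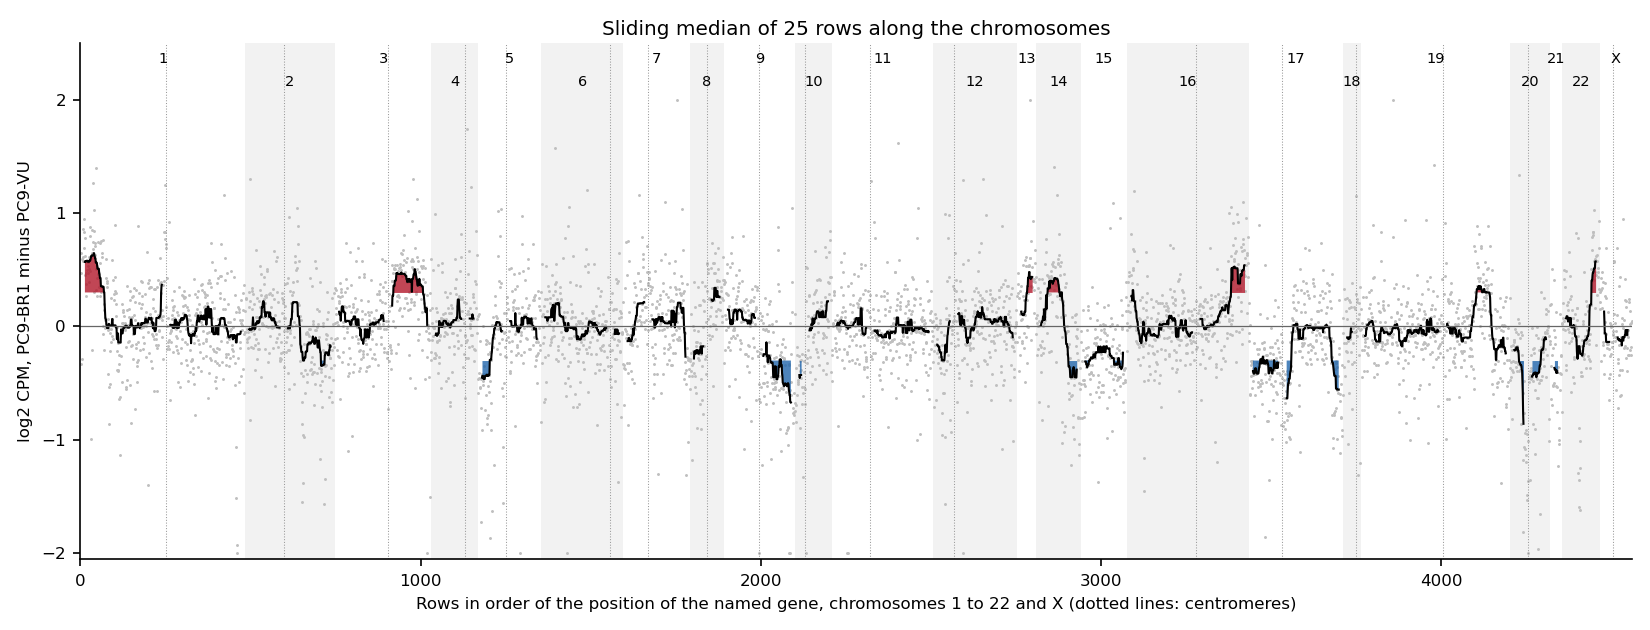
The 4559 rows in order along the chromosomes (x axis) and their log2 CPM difference, PC9-BR1 minus PC9-VU (y axis); each point is a row, drawn at 2 or -2 where it lies beyond, and the black line is the sliding median of 25 rows on arms with at least 25. Red and blue mark where that median reaches 0.3 or -0.3, as at the start of chromosome 1, in the long arm of chromosome 3, and on chromosomes 9 and 17.

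Of the 40 chromosome arms with at least 20 rows, 3 had a median log2 CPM difference of 0.2 or more, which is 7.5% of the arms, and 9 had one of -0.2 or less, which is 22.5%. The higher arms were 3q, 8q and 13q, and the lower ones were 5p, 8p, 9q, 10p, 15q, 17p, 20p, 20q and 21q. The other 28 arms had medians between -0.15 and 0.14. Another unit is the window, 25 neighbouring rows of an arm taken end to end, with a median length of 10.2 Mb. Of 167 windows, 14 had a median of 0.3 or more (8.38%) and 17 one of -0.3 or less (10.2%), so that changes of either direction were about as frequent at this scale, although whole arms were more often lower. The window medians reached from -0.76 in 20p to 0.63 in 1p.

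To find where the shifts began and ended, windows were also slid row by row, and at least 5 consecutive ones with a median past 0.3 were joined into a run, counted from the middle row of the first to the middle row of the last or to the end of the arm. There were 26 runs, 8 higher and 18 lower, chosen by the very values that describe them. A shift interrupted by a few rows counts as several runs, so 17p holds 4 of the lower runs, 15q 3 and 9q 2. The higher runs held 328 rows (7.19%), of which 295 were higher in PC9-BR1, with a median of 0.46. The lower runs held 471 rows (10.3%), of which 428 were lower, with a median of -0.43. In the 3760 rows outside the runs the median was -0.01, and 1824 were higher and 1936 lower. The median shift was of like size in rows with few and with many counts. In the lower runs the median was -0.47, -0.38 and -0.44 for rows of low, intermediate and high mean count, and in the higher runs it was 0.45, 0.48 and 0.46. Of the 89 rows that were at least 2-fold lower, 33 lay in lower runs, 0 in higher runs and 56 outside. Of the 40 that were at least 2-fold higher, 11 lay in higher runs, 2 in lower runs and 27 outside.

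In the following, the level of a region in a library is the median over the region's rows of that library's log2 CPM minus the row's mean over the 8 libraries, so it shows which library stands apart. Differences of the other 6 libraries from PC9-VU are given beside those of PC9-BR1, and all of these comparisons share the PC9-VU library.

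The arm 3q was the broadest region higher in PC9-BR1. Its 128 rows had a median difference of 0.30, with quartiles of 0.06 and 0.51, and 100 of them were higher. Within it, a run of 87 rows from about 113.2 to 185.2 Mb had a median of 0.45, against 0.05 in the rest of the arm. The level of the run was -0.03 in PC9-VU, 0.37 in PC9-BR1, -0.16 in PC9-MGH, -0.14 in DS3, -0.10 in DS6, 0.03 in DS7, -0.07 in DS8 and 0.03 in DS9. PC9-BR1 was thus above each of the other libraries over the run as a whole. In its last full window, from about 170.0 to 184.5 Mb, PC9-MGH was as high, with a difference from PC9-VU of 0.42 beside 0.36 in PC9-BR1, and levels of 0.31 and 0.34. Summed over the run, PC9-VU had 9803 CPM and PC9-BR1 12856, a log2 ratio of 0.39 with a 95% counting interval from 0.37 to 0.41, which like the other counting intervals here covers counting error only. That window includes the positions of PIK3CA, a catalytic subunit of PI3-kinase, and of SOX2, a transcription factor of squamous lineages.

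At the start of chromosome 1, 70 rows from about 0.8 to 15.9 Mb had a median difference of 0.57, and 64 of them were higher in PC9-BR1. The rest of 1p had a median of 0.03, which kept the whole arm at 0.14. In levels, PC9-VU was at -0.08, PC9-BR1 at 0.48, PC9-MGH at 0.10, DS3 at -0.08, DS6 at -0.12, DS7 at -0.08, DS8 at -0.15 and DS9 at -0.16. Only PC9-BR1 and, by less, PC9-MGH were above the row means. The median row difference between PC9-BR1 and each of these other 6 libraries was between 0.41 and 0.64 over the run. In its first window, the 25 rows up to about 1.7 Mb, PC9-MGH was 0.37 above PC9-VU and PC9-BR1 0.57. The levels there were 0.28 in PC9-MGH and 0.48 in PC9-BR1, although the median row difference between these libraries was 0.05. Guanine and cytosine (GC) make up 53.3% of the 500 kb around these rows, and after a correction for GC content the median of the run was 0.51. Far from it, at the centromeric end of the arm, a window of 26 rows from about 109.7 to 121.2 Mb had a median of 0.36, while the 6 windows between the pair of shifts had medians from -0.14 to 0.04.

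The end of 16q gave another sharp shift. A run of 52 rows from about 81.0 Mb to the last row of the arm had a median of 0.51, whereas the other rows of 16q had a median of 0.06. The levels were 0.02 in PC9-VU, 0.53 in PC9-BR1, 0.03 in PC9-MGH, 0.08 in DS3, 0.12 in DS6, 0.14 in DS7, -0.35 in DS8 and -0.37 in DS9. Here the low libraries were DS8 and DS9, and PC9-BR1 was the highest. The run holds 18894 counts of PC9-VU and 19232 of PC9-BR1, the smaller library, for a log2 ratio of summed CPM of 0.37 (95% counting interval 0.34 to 0.40).

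On 22q, 25 rows from about 42.4 Mb to the last row had a median difference of 0.57, and 24 of them were higher in PC9-BR1. PC9-BR1 was not the highest library there. Its level was 0.38, against 1.03 in PC9-MGH, -0.18 in PC9-VU and values from -0.29 to -0.16 in the 5 sublines. A stretch of 26 rows on 19q, from about 47.8 to 49.3 Mb, had a median difference of 0.34, with 24 rows higher and a level of 0.29 in PC9-BR1 against -0.05 in PC9-VU and at most 0.13, in PC9-MGH, elsewhere.

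On 13q the median of 57 rows was 0.30, and its run of 27 rows from about 77.0 Mb to the end of the arm had a median of 0.43. The level of the run was 0.35 in PC9-BR1 and 0.41 in PC9-MGH, against -0.05 in PC9-VU and a lowest value of -0.46 in DS9. The long arm of chromosome 8 had 48 rows, 42 of them higher in PC9-BR1, with a median of 0.25, and PC9-MGH had 0.30 there against PC9-VU. Unlike the other called arms with a higher median, 8q fell under 0.2 when rows with a mean of 10 counts were admitted (0.17) or GC content was corrected (0.19). Its only run, around 126.6 to 140.5 Mb, held 5 rows with a median of 0.47 and fell to 0.09 among rows averaging 200 counts or more.

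**Figure D2:**
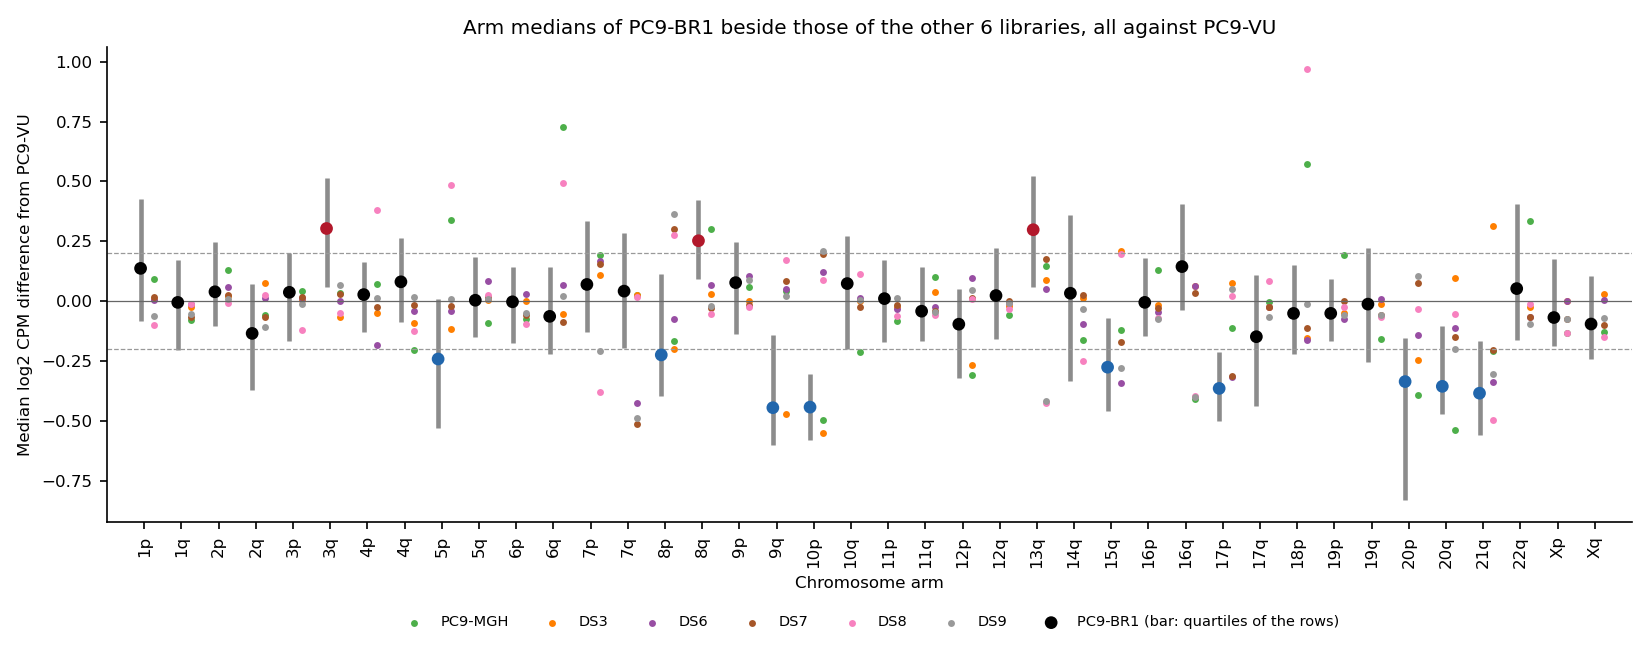
Median log2 CPM difference from PC9-VU on each of the 40 arms with at least 20 rows; large points are PC9-BR1, red at 0.2 or more and blue at -0.2 or less (dashed lines), with a bar from the lower to the upper quartile of its rows, and small points are the other 6 libraries. On 3q no small point is near the PC9-BR1 median of 0.30, whereas on 9q DS3 (-0.47) lies beside PC9-BR1 (-0.44).

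The long arm of chromosome 9 had the lowest median of the arms, at -0.44 over 106 rows, of which 87 were lower in PC9-BR1. It deepened along the arm. The medians of its 4 windows were -0.26, -0.32, -0.35 and -0.61, from the centromere to the arm end. The levels of the arm were 0.06 in PC9-VU, -0.36 in PC9-BR1, 0.13 in PC9-MGH, -0.40 in DS3, 0.15 in DS6, 0.13 in DS7, 0.19 in DS8 and 0.09 in DS9. PC9-BR1 and DS3 were therefore the low libraries, and no value of the other 6 was below 0.06. Summed over the arm, PC9-VU had 14200 CPM and PC9-BR1 10873, a log2 ratio of -0.39 (95% counting interval -0.41 to -0.36). The short arm, 9p, had a median of 0.08.

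A similar value was found on 10p, where 29 of 30 rows were lower in PC9-BR1 and the median was also -0.44. In the other libraries the difference from PC9-VU was -0.49 in PC9-MGH and -0.55 in DS3, but 0.12 in DS6, 0.20 in DS7, 0.09 in DS8 and 0.21 in DS9. In levels, PC9-BR1 (-0.33), PC9-MGH (-0.43) and DS3 (-0.38) were low and the other 5 libraries lay between 0.15 and 0.36. The long arm, 10q, had a median of 0.07.

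Chromosome 17 was lower in PC9-BR1 in 3 separate places. On 17p, 91 of 99 rows were lower, with a median of -0.36 and window medians of -0.39, -0.33 and -0.37 from the arm end to the centromere. The levels on 17p were 0.14 in PC9-VU, -0.25 in PC9-BR1, 0.02 in PC9-MGH, 0.20 in DS3, -0.21 in DS6, -0.18 in DS7, 0.19 in DS8 and 0.15 in DS9. Low levels over 17p as a whole were thus found in PC9-BR1, DS6 and DS7. In a run of 19 of its rows, from about 7.5 to 8.6 Mb, PC9-MGH was the lowest, at -0.86 against -0.10 in PC9-BR1 and 0.30 in PC9-VU. Just across the centromere, all 26 rows of a run on 17q, from about 29.0 to 40.4 Mb, were lower, with a median of -0.60. The level of that run was 0.14 in PC9-VU and -0.47 in PC9-BR1, with -0.16 in PC9-MGH, 0.06 in DS3, -0.04 in DS6, 0.09 in DS7, 0.12 in DS8 and 0.12 in DS9. No other library came near PC9-BR1. DS6 and DS7, which were low on 17p, were close to PC9-VU here. The next 5 windows of 17q had medians between -0.02 and 0.01. Then, from about 76.9 Mb to the end of the arm, 32 of 33 rows were lower, with a median of -0.59. Over these last rows the level was -0.49 in PC9-BR1 and -0.45 in PC9-MGH, against 0.16 in PC9-VU and 0.04 to 0.45 in the sublines.

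Chromosome 20 was lower on both arms. The median was -0.33 over 52 rows of 20p, 48 of them lower, and -0.35 over 66 rows of 20q, 60 of them lower. PC9-MGH was lower than PC9-VU on both arms too, by -0.39 on 20p and -0.54 on 20q. On 20p the shift was uneven. A run of 26 rows from about 5.5 Mb to the centromeric end had a median of -0.81, the lowest of all runs, and the rest of the arm had -0.21. Its level was 0.16 in PC9-VU, -0.67 in PC9-BR1, -0.28 in PC9-MGH, -0.08 in DS3, -0.08 in DS6, 0.28 in DS7, 0.08 in DS8 and 0.30 in DS9. Among rows averaging 200 counts or more the same run had a median of -0.48, and without a filter on low counts -0.52. On 20q, all 38 rows of a run from about 32.9 to 46.6 Mb were lower, with a median of -0.44 against -0.11 in the rest of the arm. The levels of 20q as a whole were -0.20 in PC9-BR1 and -0.35 in PC9-MGH, the lowest, against 0.17 in PC9-VU.

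On 5p the shift lay mainly at the end of the arm. The run of 35 rows from about 0.2 to 14.5 Mb had 33 lower rows and a median of -0.45, the rest of the arm had -0.05, and the arm as a whole had -0.24. The levels of the run were -0.04 in PC9-VU, -0.48 in PC9-BR1, 0.29 in PC9-MGH, -0.15 in DS3, -0.10 in DS6, 0.02 in DS7, 0.43 in DS8 and 0.03 in DS9. PC9-BR1 was below every other library, and PC9-MGH and DS8 stood on the opposite side of PC9-VU. This end of 5p includes the position of TERT, the catalytic subunit of telomerase.

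Chromosome 14 held shifts of both directions, so that the median of its 131 rows was only 0.03. The 5 windows had medians of 0.00, 0.40, 0.40, -0.15 and -0.45 in order along the arm. A run of 36 rows from about 50.7 to 72.9 Mb was higher, with a median of 0.40 and 32 higher rows. In that run the level was 0.37 in PC9-BR1, -0.06 in PC9-VU and 0.12 in PC9-MGH, and it lay between -0.13 and -0.03 in the sublines. Its summed CPM gave a smaller log2 ratio of 0.21 (95% counting interval 0.18 to 0.24), since sums weigh the rows with many counts. The lower run held 37 rows from about 89.8 Mb to the end of the arm, 33 of them lower, with a median of -0.45. There the levels were -0.31 in PC9-BR1, -0.29 in DS8 and -0.11 in DS6, against 0.17 in PC9-VU and 0.07 to 0.21 in the remaining 4.

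**Figure D3:**
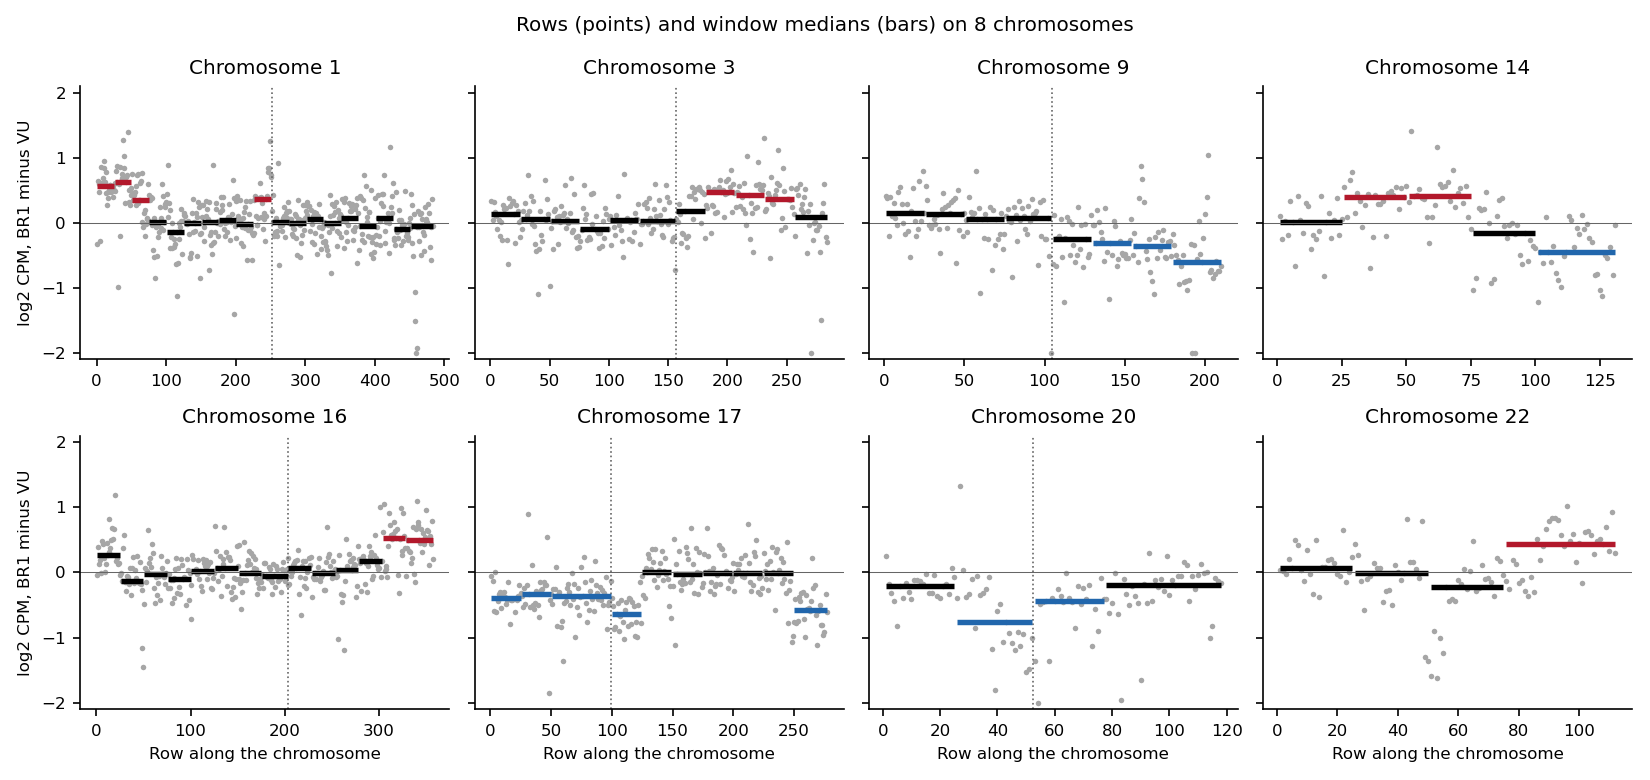
Log2 CPM difference, PC9-BR1 minus PC9-VU (y axis), of each row (points, drawn at 2 or -2 where beyond) in order along 8 chromosomes (x axis), with bars at the medians of consecutive windows of 25 rows, red at 0.3 or more and blue at -0.3 or less; dotted lines are centromeres. Chromosome 14 steps from 0.40 to -0.45 within its long arm, and chromosome 17 returns to about 0 between 2 lower regions of its long arm.

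The lower shifts of 15q, 21q and 8p were shared by more of the other libraries or were less even. On 15q, 111 of 136 rows were lower in PC9-BR1 and the median was -0.27, beside -0.34 in DS6, -0.28 in DS9 and -0.17 in DS7 but 0.21 in DS3 and 0.20 in DS8. On 21q, 28 of 34 rows were lower, with a median of -0.38, and 5 of the other libraries were also below PC9-VU, from -0.20 in DS7 to -0.49 in DS8, while DS3 was at 0.32. PC9-VU itself had the second highest level on 21q, 0.18, after 0.49 in DS3. Set against the median of the 5 sublines in place of PC9-VU, the difference of PC9-BR1 was -0.15 on 21q and -0.19 on 15q. On 8p, 36 of 52 rows were lower in PC9-BR1, with a median of -0.22. Without a filter on low counts this was -0.13, and against the median of the 5 sublines it was -0.35. DS7, DS8 and DS9 were on the other side of PC9-VU there, at 0.30, 0.28 and 0.36, while PC9-MGH (-0.17) and DS3 (-0.20) were on the side of PC9-BR1.

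How far each shift was particular to PC9-BR1 can only be described, since each library is single. Of the 8 higher runs, PC9-BR1 had a level above all other 7 libraries in 6, and of the 18 lower runs it had a level below them all in 7. Those 7 include the first and last of the runs on 17p, pieces of a shift of the whole arm. PC9-BR1 was barely below DS6 in them (-0.29 against -0.28, and -0.26 against -0.22). It was also barely below DS8 in the lower run of 14q (-0.31 against -0.29). Row by row, the median of PC9-BR1 minus DS8 there was 0.06. In the run at the end of 17q it was little below PC9-MGH (-0.49 against -0.45), with a median row difference of -0.05. For windows the same held for 12 of the 14 higher and 6 of the 17 lower ones. In 6 higher runs, no other library differed from PC9-VU in the same direction by as much as 50% of the PC9-BR1 difference, and this was so for 3 of the lower runs, those of 5p, the centromeric side of 17q and 20p. PC9-VU was seldom the library that stood apart. Its level was outside the range of the other 7 in 1 lower run and in none of the higher runs.

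**Figure D4:**
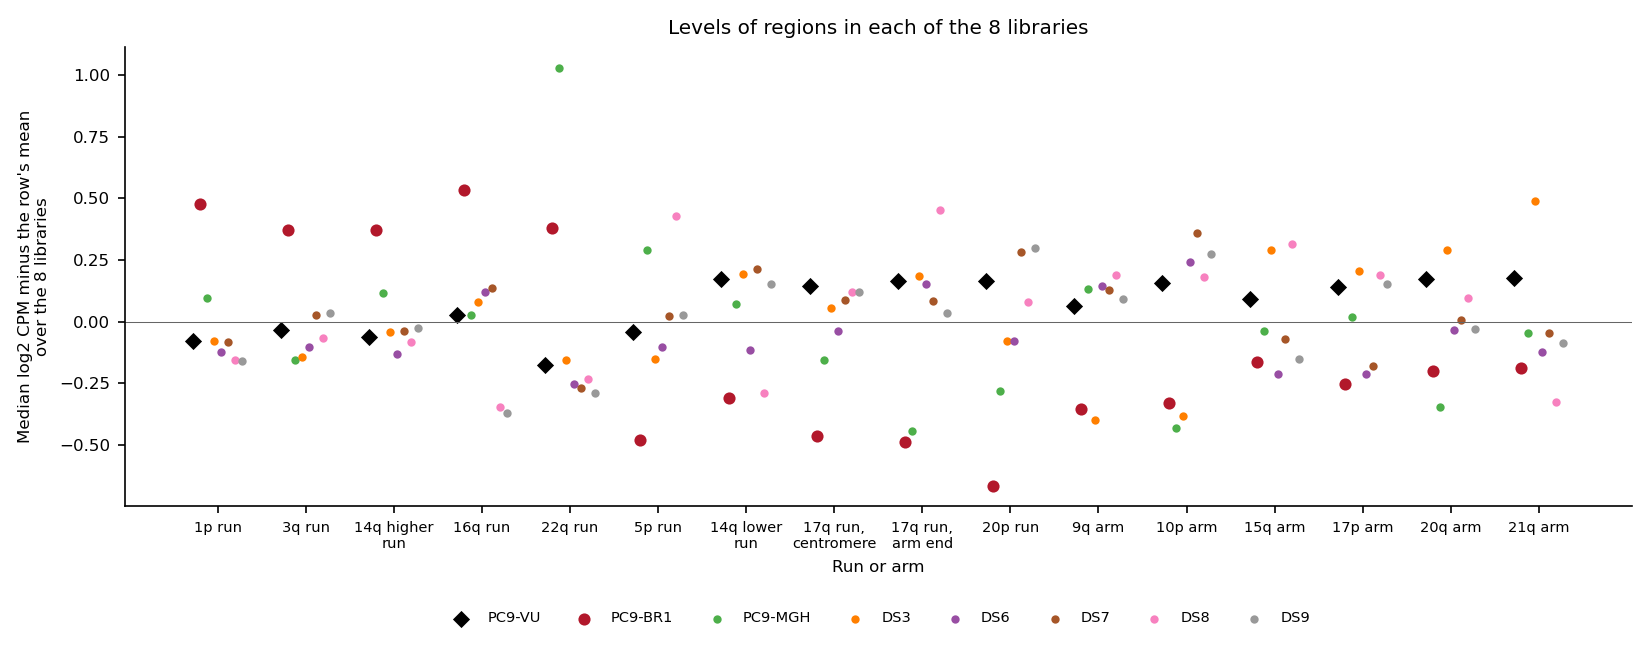
Level of 10 runs and 6 arms (x axis) in each of the 8 libraries, as the median over rows of log2 CPM minus the row's mean over the libraries (y axis); red circles are PC9-BR1, black diamonds PC9-VU and small circles the other 6. PC9-BR1 is alone above the others in the runs of 1p, 3q and 16q and alone below them in those of 5p and 20p, while PC9-MGH is the highest on the 22q run (1.03) and DS3 is beside PC9-BR1 on 9q.

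As a background for these values, the same windows were laid over each pair of libraries. PC9-BR1 and PC9-VU differed past 0.3 in 31 of 167 windows, and the standard deviation (SD) of the window medians was 0.22. Against PC9-VU, PC9-MGH had 53 such windows (SD 0.31), DS8 had 23 (0.22), DS9 17 (0.15), DS6 12 (0.15), DS7 10 (0.13) and DS3 6 (0.12). Higher windows were rare in the sublines other than DS8, with 1 in DS3, 0 in DS6, 1 in DS7 and 2 in DS9, whereas PC9-BR1 had 14 and DS8 11. Compared with the other libraries instead, PC9-BR1 differed in 60 windows from PC9-MGH, 54 from DS8, 42 from DS9, 36 from DS3 and 31 each from DS6 and DS7. PC9-BR1 was thus about as far from its parent, by this count, as from DS6 and DS7, which are single-cell progeny of the same parent.

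A list of 29 genes linked to EGFR inhibitor resistance, cell cycle control and lung lineage was used to mark positions. For each, 25 consecutive rows of its arm centred on the gene were summarised, or the outermost 25 where the arm ended too soon. On 18q there were 15, all that the arm has. Such a summary of rows says nothing about the transcript of the gene itself. These rows are often not close to the gene. They lay from about 0.9 to 1.5 Mb at STK11 but from 90.1 to 143 Mb at MYC and from 31.8 to 99.1 Mb at RB1. At BCL2L1 all of them lay beyond the gene, from 32.9 Mb on. At 4 positions the median was 0.3 or more, at 4 it was -0.3 or less, and at 21 it lay between, to be read beside the 8.38% and 10.2% of all windows. Some of these groups of rows overlap, such as those at ERBB2 and NF1 and those at PIK3CA and SOX2.

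Among the 9 positions of receptors and bypass kinases, 1 was past 0.3. At EGFR, the receptor that drives these cells, 23 of 25 rows were higher in PC9-BR1 and the median was 0.22, beside 0.47 in PC9-MGH and -0.72 in DS8 against the same PC9-VU library, and without a filter on low counts the PC9-BR1 median was 0.33, past the threshold. At MET, a receptor whose gain can bypass EGFR, the median was 0.04, with 13 rows higher and 12 lower. Against the median of the 5 sublines it was 0.49. Of these, DS6 (-0.54), DS7 (-0.59) and DS9 (-0.46) were below PC9-VU there, and DS3 (-0.05) and DS8 (-0.03) were near it. At ERBB2, the HER2 receptor, 21 of 25 rows were lower and the median was -0.46, which became -0.21 among rows averaging 200 counts or more. That filter draws the 25 rows from further along the arm. The 17q run from about 29.0 to 40.4 Mb, with its borders fixed, stayed at -0.47 or lower under every setting. The CPM summed over the 25 rows at ERBB2 with the filter used here differed less, 6055 in PC9-VU and 5700 in PC9-BR1, a log2 ratio of -0.09. Against PC9-VU, neither position of these known bypass genes was in a higher window. Medians at ERBB3 (-0.03), AXL (-0.12), FGFR3 (-0.07) and FGFR1 (-0.17), which are also receptor tyrosine kinases, and at YES1 (-0.10), a SRC-family kinase, were within 0.3, and that at FGFR1 turned to 0.14 when rows averaging 10 counts were admitted. At IGF1R, the receptor of insulin-like growth factor 1, the median was -0.23, and it was past the threshold, at -0.38, with 15 rows in place of 25.

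For the 5 positions of downstream signalling, 2 were higher and 1 was lower. At PIK3CA the median was 0.43, with 22 of 25 rows higher, and PC9-MGH had 0.42. At NRAS, a RAS GTPase on 1p, it was 0.37, but it fell to 0.08 among rows averaging 200 counts or more and to 0.10 over 51 rows. At NF1, whose product turns RAS off, all 25 rows were lower, with a median of -0.63. This became -0.39 over 51 rows, still past the threshold, and -0.21, as at ERBB2, among rows averaging 200 counts or more. Both medians thus depended on which rows were taken, since that filter draws the 25 rows from further along the arm. BRAF, a kinase of the RAS to ERK pathway, marked a median of 0.16, which was 0.35 against the median of the 5 sublines and -0.02 when rows averaging 10 counts were admitted. At BRAF too, DS6 (-0.35), DS7 (-0.44) and DS9 (-0.41) were below PC9-VU, with DS3 (0.01) and DS8 (0.04) near it. CRKL, an adaptor protein, marked one of 0.08.

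Among the apoptosis genes, the rows at BCL2L1, which encodes the survival protein BCL-XL, were all 25 lower, with a median of -0.44, and PC9-MGH had -0.50 there. BCL2L11, which encodes the pro-apoptotic BIM needed for killing by EGFR inhibitors, marked a median of 0.07 and MCL1, another survival gene, one of 0.01. Of the 9 cell cycle and tumour suppressor positions, 1 was past 0.3. MYC on 8q was higher, at 0.34 with 22 of 25 rows. It moved under 0.3 with 15 rows (0.24) or 51 rows (0.25) in place of 25. It was also under 0.3 when rows averaging 10 counts were admitted or without a filter (0.24 each), and at 200 counts (0.26). GC correction gave 0.29. Against the median of the 5 sublines it was 0.29, and against the mean of the other 7 libraries 0.26. CDKN2A (0.12), RB1 (0.13), CCND1 (-0.06), CDK4 (0.12), CDK6 (0.05), SMAD4 (0.11), STK11 (0.02) and KEAP1 (-0.03) lay between. Without a filter on low counts, however, CDK4 was at 0.44, CDK6 at -0.27 and RB1 at -0.09, so these small medians are not stable. In the lineage group, SOX2 had 0.37 beside 0.42 in PC9-MGH, TERT -0.44 and NKX2-1, the transcription factor of lung adenocarcinoma, 0.09.

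**Figure D5:**
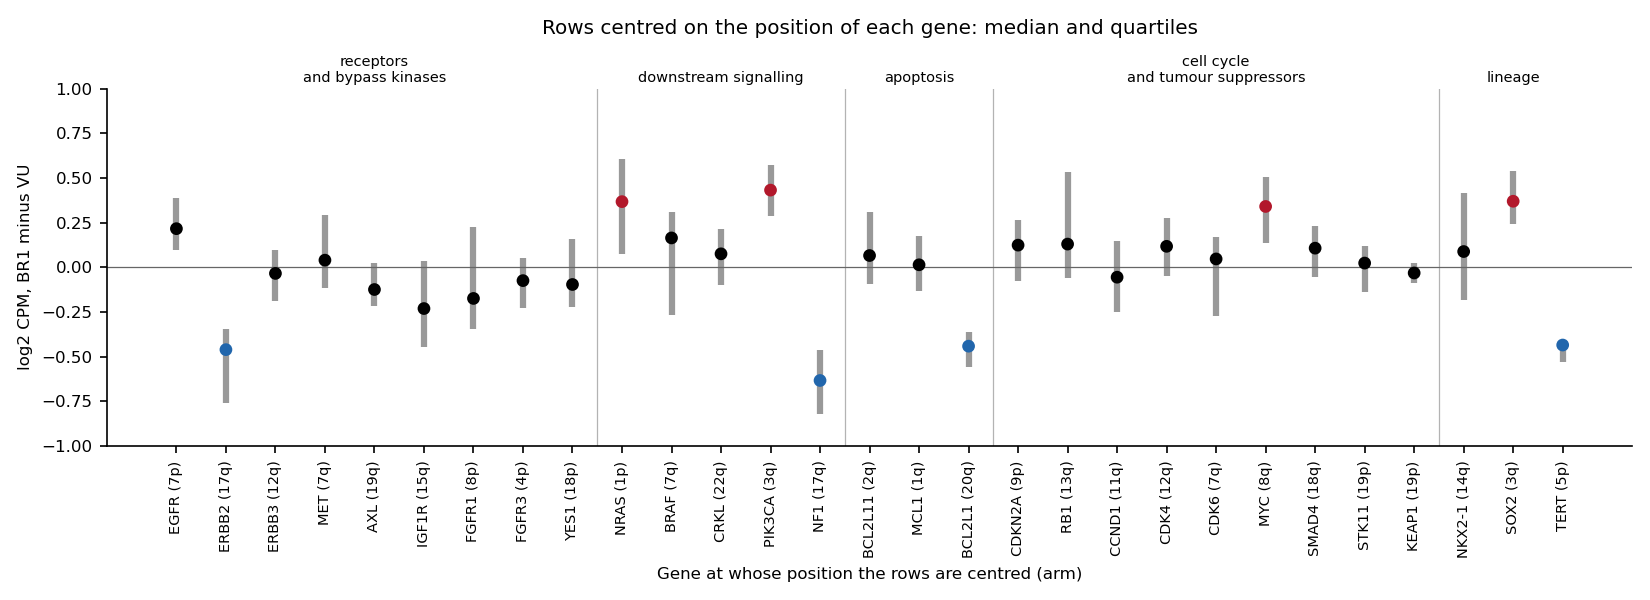
Median log2 CPM difference, PC9-BR1 minus PC9-VU (points, y axis), of the rows centred, as far as the arm allows, on each of 29 genes. The x axis gives the gene and its arm, and bars run from the lower to the upper quartile of those rows. Red is 0.3 or more and blue -0.3 or less. The rows at NF1 (-0.63) and ERBB2 (-0.46) are on the same stretch of 17q, and those at EGFR (0.22) and MET (0.04) are within 0.3 with the filter used here.

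Shorter stretches were looked for only after the values above had been seen, with sliding windows of 7 rows whose median was past 2-fold. They covered 3 stretches, all of them lower in PC9-BR1. On 20p, the last 11 rows before the centromere, from about 18.5 to 25.4 Mb, were all lower, between -1.53 and -0.76, with a median of -1.06, while the 41 rows before them had a median of -0.30. PC9-VU had 5429 counts and PC9-BR1 2023 over these rows, a log2 ratio of summed CPM of -1.08 (95% counting interval -1.15 to -1.01). In levels, PC9-BR1 was at -0.87 and PC9-VU at 0.18, with the other 6 libraries from -0.16 in DS3 to 0.48 in DS9. DS3 was also lower than PC9-VU over these rows, by a median of -0.38, and the other 5 were between -0.11 and 0.24 from it.

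In the middle of 22q, 11 rows from about 32.0 to 37.8 Mb had a median of -1.01, with 10 rows lower, 6 of them at least 2-fold. The 7 rows before had a median of 0.06 and the 7 rows after one of -0.17. The borders of the stretch were set by these same values, so this contrast was built in and shows no edge. PC9-VU had 8223 counts and PC9-BR1 3451. The level was -1.04 in PC9-BR1, -0.01 in PC9-VU, 0.79 in PC9-MGH, -0.17 in DS3, 0.02 in DS6, -0.08 in DS7, 0.61 in DS8 and -0.24 in DS9. Without a filter on low counts the median of the same stretch was -0.52. On 1q, 10 rows from about 227.7 to 229.3 Mb included 4 that were at least 2-fold lower, yet the median was -0.42 and the summed CPM of 1210 in PC9-VU and 1172 in PC9-BR1 hardly differed. With few rows in each, and names that may belong to neighbours, how many separate transcripts these stretches hold is unknown.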

How the data were processed

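Poly-A selected, rRNA-depleted RNA (200 ng per library) was sequenced as paired 150 bp reads. The authors aligned the reads with STAR (version 2.5.2b) to hg38, counted them with featureCounts (version 1.6.4) and deposited raw counts per row, not normalized. Their strand setting is not given in the sources used here. Rows without a gene symbol (4.38% of the counts of PC9-VU, 4.41% of PC9-BR1) were left out. The populations, regions and gene list were chosen with earlier results of these data known.

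Log2 CPM was computed in edgeR (version 4.0.16) with TMM factors from all 8 libraries and a prior count of 2, in R (version 4.3.3) and Python (version 3.11.15). Of the named rows, 41 matched several genes and 489 none in GENCODE. Centromeres were placed where the hg38 sequence holds dense CENP-B boxes. Windows were laid from the start of each arm, with left-over rows joined to the last. Counting intervals assume Poisson counts at the 95% level and do not cover PCR duplicates or culture. The genes named as positions are all those of a list of 29, and some other positions are not reported here. With 1 library per population, no test was made. The steps were tested on simulated data. The alternatives covered scaling (TMM, DESeq2 version 1.42.0 size factors, totals), prior count, filter, GC content, reference library, thresholds and window size.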

Additional observations from a re-analysis of the deposited data

How the results depend on the processing

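No paired analysis was possible because each population has 1 library, so no test was made and no replicate could be left out. DESeq2 size factors, library totals, a prior count of 0.5, centring, GC correction and shifted windows left each count of arms, windows and rows within 1.5 times its value, and no setting moved the median of all rows by over 0.1. None of the 12 arms past 0.2 changed direction under any setting. The filter mattered most for rows. When a mean of 10 counts was enough, 141 rows were at least 2-fold higher and 240 lower, with 200 counts 9 and 23, and with no filter 815 and 729, so the excess of lower rows (89 against 40) was lost there. Windows past 0.3 numbered 5 higher and 9 lower with 200 counts, 39 and 47 with no filter, 24 and 36 with 15 rows per window, and 3 and 5 with 50 rows. Higher arms numbered 5 against the median of the 5 sublines and 5 against the mean of the other 7 libraries. Other thresholds gave 238 higher and 311 lower rows at 1.5-fold, 3 and 12 at 4-fold, 5 higher arms past 0.1 and 1 past 0.3, 26 lower windows past 0.2, and 3 higher and 4 lower windows past 0.5. Of the runs and short stretches, the direction turned for a run on 2q with no filter (0.033, from -0.34), for the run of 11 rows at 78.6 Mb on 15q with 10 counts (0.03, from -0.21) and for the short stretch on 1q with 200 counts (0.13, from -0.42). Medians near 0 at several gene positions changed sign with the filter, the GC correction or the number of rows. The cause was not tested, beyond each filter changing which rows were used. Depth limits single rows, whose counting error is near the size of the smaller shifts.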
